A study of Caenorhabditis elegans with 2 samples.

Results

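The small nuclear RNAs (snRNAs) of the spliceosome are made by different polymerases. RNA polymerase III (Pol III) transcribes the U6 gene from a promoter that lies wholly before the gene, and RNA polymerase II (Pol II) transcribes the U1, U2, U4 and U5 genes. Both kinds of promoter are read by the snRNA activating protein complex (SNAPc) at a proximal sequence element. In animals a TATA box after that element is typical of U6 promoters, and a run of T ends Pol III transcripts. U6 forms the catalytic core of the spliceosome together with U2, and its ACAGAGA box pairs with the 5′ splice site.

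Occupancy of RPC-1, the largest subunit of Pol III, was measured by chromatin immunoprecipitation with sequencing in 2 biological replicates of 1 group. The worms were whole young adults of Caenorhabditis elegans strain YL517, a pooled population of both sexes that stably carries a transgene for RPC-1 with GFP-FLAG at its C terminus. The libraries mix all tissues, so occupancy in few cells and weak occupancy in many cells cannot be told apart. No other genotype, stage or control library was analysed here, and the data hold no comparison between conditions. One free-text label gives the target as PRC-1, whereas the antibody label gives rpc-1. The spliceosomal snRNA genes were taken as all nuclear genes of the RefSeq WBcel235 annotation with a snRNA feature, without the 30 spliced leader genes named sls-. This gave 99 of 46890 nuclear genes and pseudogenes. A short conserved word of each RNA, such as the stretch of U6 that follows its ACAGAGA box, sorted them into 24 U6, 12 U1, 20 U2, 5 U4 and 12 U5 genes. The remainder were 10 SmY genes named smy- and 16 untyped genes. The U1, U2, U4 and U5 genes, called Pol II-type genes here, together numbered 49.

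The deposited values were peaks, each with an interval, a summit and a signal value, which is the authors' own score for the peak. The optimal list, the peaks that passed the authors' reproducibility filter (IDR), held 2123 peaks with signal values of 59.97 to 9672 and a median of 355. The pooled list held 24907 peaks with a median of 11.6, and the lists of replicates 1 and 2 held 26455 and 27629. A gene was counted as having a peak where the gene, widened by 100 bp on both sides, overlapped a peak, and its highest signal value was used. Read depth per library is unknown for these values, and signal values were read within 1 list only.

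Most U6 genes are near-identical copies, with 0 or 1 change from the commonest sequence in 18 of 24 and 2 or more in the other 6. W05B2.8 (chrIII:10989679-10989780, plus strand) is 102 bases long, and 14 of the 24 U6 genes carry exactly its sequence. Its upstream region and those of other members are printed from RefSeq WBcel235, the assembly that ce11 names, written 5′ to 3′.

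The 70 bases before the annotated start are shown for U6 genes that span the range of signal values, because the promoters differ far more than the genes do. Capitals mark TATA between 40 and 15 bases before the start and the 8-base word CGGAACCC, both searched on the gene's strand, and where TATA occurs more than once the first is marked. The intervals are W05B2.8 chrIII:10989609-10989678, Y9C9A.111 chrIV:4930884-4930953, Y17G9A.90 chrIV:4866741-4866810, F54C8.10 chrIII:9449499-9449568, F54C8.8 chrIII:9445841-9445910, K09B11.16 chrIV:13443675-13443744, F32D1.12 chrV:4354370-4354439 and F36A4.23 chrIV:4239690-4239759 on the plus strand. Those on the minus strand are F54D8.7 chrIII:5080899-5080968, C28A5.7 chrIII:4426956-4427025, F54C8.9 chrIII:9447860-9447929 and K09B11.15 chrIV:13443497-13443566. They are ordered by signal value, and the last 3 had no optimal peak.
W05B2.8: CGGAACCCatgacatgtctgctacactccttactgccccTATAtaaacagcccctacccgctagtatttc
F54D8.7: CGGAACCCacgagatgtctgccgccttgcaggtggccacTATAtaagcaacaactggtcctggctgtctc
Y9C9A.111: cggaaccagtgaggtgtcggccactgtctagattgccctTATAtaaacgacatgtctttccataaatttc
C28A5.7: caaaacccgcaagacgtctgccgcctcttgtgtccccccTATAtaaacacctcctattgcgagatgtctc
F54C8.10: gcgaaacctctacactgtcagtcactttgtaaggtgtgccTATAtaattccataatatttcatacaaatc
F54C8.9: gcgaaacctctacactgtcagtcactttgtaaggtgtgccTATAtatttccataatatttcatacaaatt
Y17G9A.90: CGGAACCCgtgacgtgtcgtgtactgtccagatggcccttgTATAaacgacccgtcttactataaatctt
K09B11.16: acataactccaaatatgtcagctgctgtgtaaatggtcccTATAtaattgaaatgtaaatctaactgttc
F54C8.8: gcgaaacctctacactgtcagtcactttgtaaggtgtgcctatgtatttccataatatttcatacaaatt
K09B11.15: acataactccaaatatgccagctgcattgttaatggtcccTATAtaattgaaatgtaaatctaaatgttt
F32D1.12: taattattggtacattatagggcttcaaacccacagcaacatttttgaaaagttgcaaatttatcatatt
F36A4.23: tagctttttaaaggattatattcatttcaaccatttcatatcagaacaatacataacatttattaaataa

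The upstream sequences of 3 Pol II-type genes with an optimal peak, of 1 SmY gene and of the untyped gene M163.13 are given for contrast. The U1 gene sup-6 lies on the minus strand with its upstream window at chrII:12944968-12945037. The U5 gene F38E11.10 has chrIV:9444572-9444641 on the plus strand, and the U4 gene C52E4.8 has chrV:11980048-11980117 on the plus strand. The smy-7 window is chrIV:6460765-6460834 on the minus strand, and that of M163.13 is chrX:14476797-14476866 on the plus strand.
sup-6: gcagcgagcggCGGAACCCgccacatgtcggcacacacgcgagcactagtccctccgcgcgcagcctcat
F38E11.10: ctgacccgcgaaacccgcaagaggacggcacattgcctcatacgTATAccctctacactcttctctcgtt
C52E4.8: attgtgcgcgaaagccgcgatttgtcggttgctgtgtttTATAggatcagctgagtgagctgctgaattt
smy-7: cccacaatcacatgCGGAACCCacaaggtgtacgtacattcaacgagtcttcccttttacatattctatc
M163.13: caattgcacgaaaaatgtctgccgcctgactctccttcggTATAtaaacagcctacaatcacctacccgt

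U6 genes carried an optimal RPC-1 peak more often than U1, U2, U4 and U5 genes, and with higher signal values, apart from 1 U5 gene. An optimal peak lay within 100 bp of 17 of 24 U6 genes (70.8%, Wilson 95% interval 50.8 to 85.1%). K09B11.13 and K09B11.14, 2 of the 17, share 1 peak that is counted for both. The count was 13 of 49 for U1, U2, U4 and U5 genes (26.5%, 16.2 to 40.3%). Over all nuclear genes and pseudogenes the share was 5.64%, and over 8074 other genes of 50 to 250 bp, without tRNA genes and tRNA pseudogenes, it was 8.56%. The difference between the snRNA groups was 44.3 percentage points (Newcombe interval 20.04 to 61.9). Without members of repeated sequence (under 50% of 36-base words found once in the genome) it was 26.8 points, from 11 of 18 U6 genes (61.1%) and 12 of 35 Pol II-type genes (34.3%). This left out 6 U6 genes, all with an optimal peak, and 14 Pol II-type genes, 1 of them with one. No interval was computed for this smaller difference, so it is not shown to be apart from 0. The Wilson and Newcombe intervals cover counting error over genes only, and the genes share 2 libraries, so they are no measure of the spread between worms. The 17 U6 genes had signal values of 161 to 6175 (median 832), a median 2.35 times the list median. The 13 Pol II-type genes had 61.2 to 1383 (median 72.7), a median 0.205 times the list median. Over all 2644 nuclear genes and pseudogenes with an optimal peak, several of which can share a peak, the median was 2165 (quartiles 318 and 3820), so both medians lay below it. Apart from the U5 gene C53D6.12, every Pol II-type gene with an optimal peak (61.2 to 123) lay below the lowest such U6 gene. The optimal peaks of members had the same values in the pooled list, where the highest member without an optimal peak stood at 58.6. For these genes the optimal list thus acted as a signal cutoff, so share and signal are not separate results. In the full pooled list the difference in share was -10.7 percentage points.

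**Figure D1:**
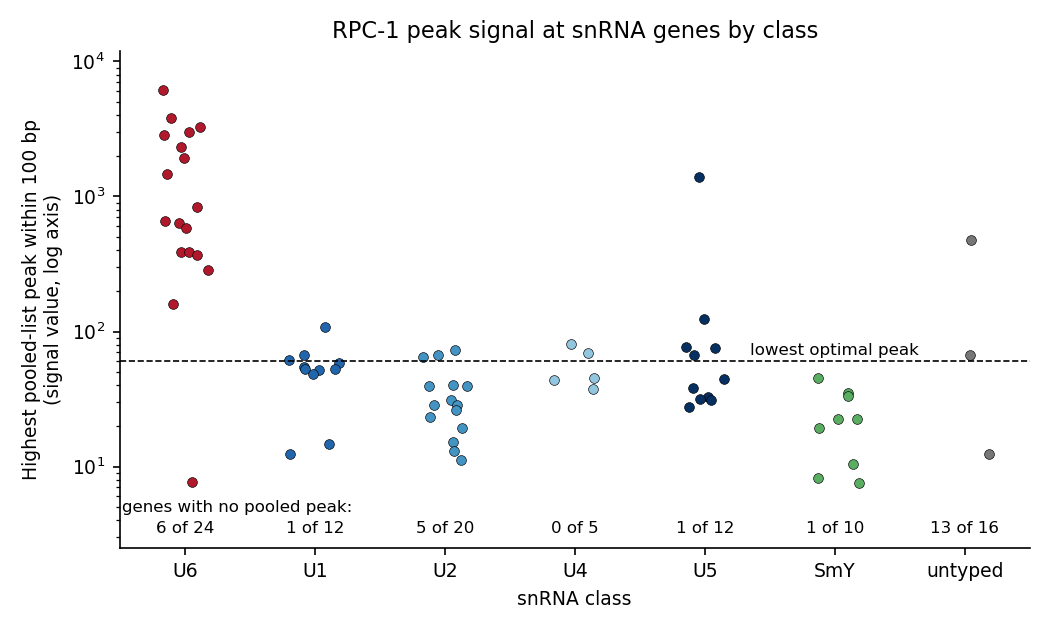
Highest pooled-list peak within 100 bp of each of the 99 snRNA genes by class (signal value, log axis), 1 point a gene, with the lowest optimal peak (59.97) as a dashed line and the number of genes without a pooled peak under each class. The U6 points reach from 161 to 6175 apart from 1 at 7.65, and most points of the other classes lie at or below the line.

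The same 17 U6 genes were found in both replicates. Each was among the 2123 strongest peaks of replicate 1 and among the 2123 strongest of replicate 2, a depth equal to that of the optimal list. Of the 49 Pol II-type genes, 8 were among the strongest of replicate 1, 6 among the strongest of replicate 2, and 2 in both, the U1 gene sup-6 and the U5 gene F38E11.10. Across the 17 U6 genes, the order of the signal values was nearly the same in both replicates (Spearman's rho 0.998, n = 17 genes that share their libraries). Across the 35 Pol II-type genes with a peak in both replicate lists it was looser (rho 0.665, n = 35). Both are descriptions over genes, and K09B11.13 and K09B11.14 enter the first with 1 shared peak. The 17 U6 genes are those with an optimal peak, which passed the authors' reproducibility filter. Of the 35 Pol II-type genes, 12 had such a peak. The U6 values also cover a wider range, in replicate 1 97.9 to 3637 against 4.12 to 76.3. The 2 rho values are therefore not on like terms.

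W05B2.8, inside the dynein heavy chain gene dhc-4, was the highest of the U6 genes. Its signal value was 6175 in the optimal list, 3637 in replicate 1 and 2544 in replicate 2, and it ranked 29 of 2123 optimal peaks. F54D8.7 followed with 3819, 2315 and 1509, at rank 233. Both lie on chromosome III, and both stand alone, with the nearest other snRNA gene 1540008 and 653842 bp away. A group on chromosome IV came next. Y9C9A.111 (chrIV:4930954-4931055) had 3248 in the optimal list, 1864 in replicate 1 and 1377 in replicate 2. T08B6.62 had 3006, 1822 and 1180 in the same order of lists, and Y17G9A.85 had 2873, 1711 and 1164. These 3 genes lie within a stretch of chromosome IV from 4864635 to 4931055, in which another U6 gene, Y17G9A.90, stood much lower at 639, 370 and 266. All 4 upstream sequences are at least 80% identical over 70 bases, and T08B6.62 and Y17G9A.85 differ at 6 of them.

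C28A5.7, K09C6.12 and R07E5.16 form another group of like promoters, 82.9 to 90% identical over the 70 bases. C28A5.7 had 2318 in the optimal list, 1394 in replicate 1 and 938 in replicate 2. K09C6.12, the only U6 gene with an optimal peak on chromosome V, had 1938, 1180 and 764. R07E5.16 had 1466, 782 and 681, at rank 615. So the 8 highest U6 genes held ranks of 29 to 615 among 2123 optimal peaks. C28A5.7 and K09C6.12 have a tRNA gene 1997 and 1694 bp away, and no U6 gene had a tRNA gene, tRNA pseudogene or other Pol III gene outside the snRNA class within 1 kb.

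The other 9 U6 genes with an optimal peak were lower, and all but Y17G9A.90 sit in a cluster on chromosome III or one on chromosome IV. F54C8.10, F54C8.9 and F54C8.8 lie between 9445911 and 9449670 of chromosome III, inside the gene F54C8.6. F54C8.10 had 832 in the optimal list, 456 in replicate 1 and 368 in replicate 2, and F54C8.9 had 655, 393 and 263. F54C8.8 had 369, 228 and 136, the lowest of the cluster in every list. Its 70 upstream bases differ from those of F54C8.9 at 1 position, and F54C8.8 is the member of the cluster with no TATA in the window.

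The K09B11 cluster holds 6 U6 genes between 13435785 and 13443846 of chromosome IV, all inside the gene mam-3 and all identical in sequence to W05B2.8. K09B11.16 had 584 in the optimal list, 352 in replicate 1 and 228 in replicate 2. K09B11.13 and K09B11.14, a divergent pair 248 bp apart, shared 1 peak of 391, 244 and 142 whose summit lies between them, so their values are not independent. K09B11.12 had 287, 165 and 123. K09B11.11 was the lowest U6 gene with an optimal peak, with 161, 97.9 and 69.7. K09B11.15 had no peak within 100 bp in any of the 4 lists. The peak of its divergent neighbour K09B11.16 began 141 bp from its start, so a window of 250 bp would assign that peak to it. Its upstream sequence differs from that of K09B11.16 at 6 of 70 bases, and its gene is identical to those of the other members of the cluster.

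**Figure D2:**
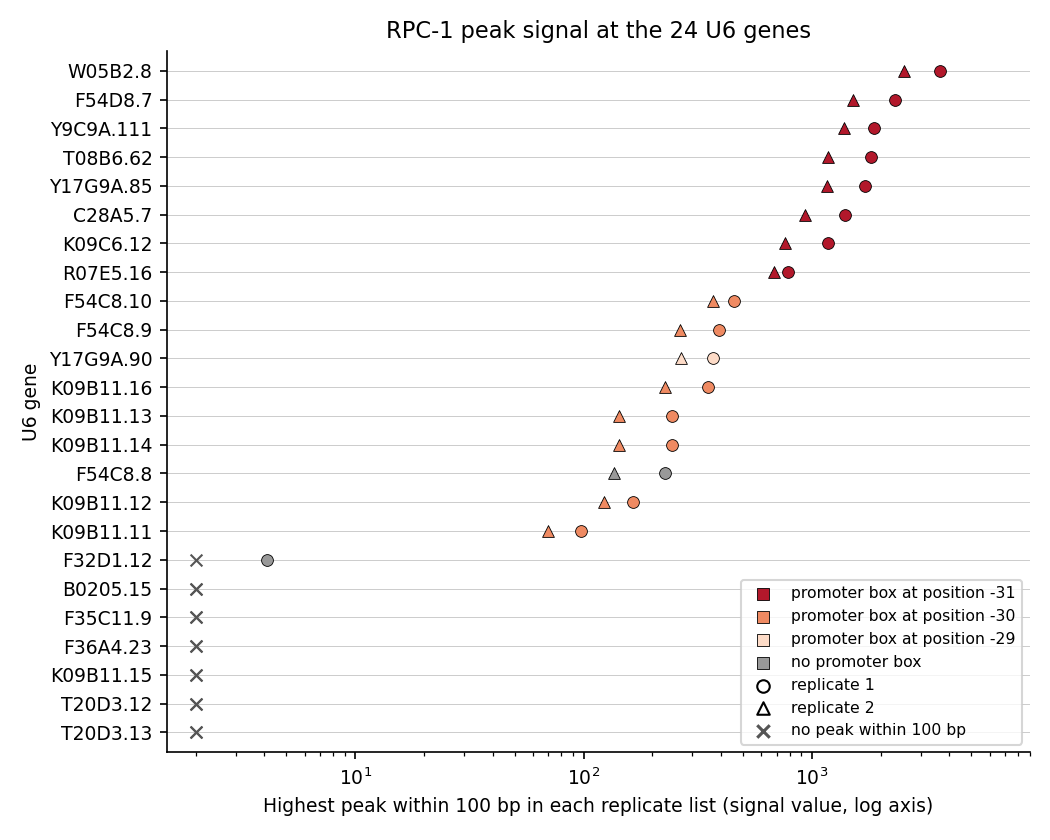
Signal value of the highest peak within 100 bp of each U6 gene in replicate 1 (circles) and replicate 2 (triangles), on a log axis, with genes ordered by the pooled value and coloured by the position of the TATA box (promoter box) before the start. The 8 genes with the box at position -31, a split chosen after the values were seen, lie above all others in both replicates. Of the 7 lowest genes, 6 have crosses for both replicates.

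Of the 7 U6 genes without an optimal peak, 6 differ in sequence from the commonest U6 gene by more than 1 base, and K09B11.15 is identical to it. Measured in single-base changes from the W05B2.8 gene, 18 U6 genes had 0 or 1 change, and 17 of these had an optimal peak. The other 6 had 2 or more changes, and none of them had one. F36A4.23 had 2 changes and F32D1.12 had 3. T20D3.13 had 6 changes, T20D3.12 had 15, B0205.15 had 20 and F35C11.9 had 25. F32D1.12 was the only one of these 6 with a peak in any list, at 7.65 in the pooled list with its summit at an offset of -335 bp from the gene start, and 4.11 in replicate 1. All 6 hold the U6 word by which they were typed, and all but F35C11.9 were also typed as U6 by similarity over the whole gene.

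The TATA box went with the peak in a like manner. TATA stood 40 to 15 bases before the start in 17 of 24 U6 genes (70.8%), against 4 of 49 Pol II-type genes (8.16%) and 15.4% of all nuclear genes and pseudogenes. Of the 17 U6 genes with it, 16 had an optimal peak, and K09B11.15 did not. Of the 7 without it, 1 had an optimal peak, F54C8.8. The other 6 are the same genes that had 2 or more changes, so lack of the box and sequence change cannot be told apart there. Of the 14 U6 genes identical to W05B2.8, 13 had the box, and 12 of these had an optimal peak. The 1 identical gene without the box, F54C8.8, also had a peak. The box was nearly fixed in place, at position -31 in 8 genes, -30 in 8 and -29 in 1, counted at the first TATA of each gene. In the 4 Pol II-type genes it began between -37 and -26. A run of TTTT within 20 bases of the gene end, on the gene's strand, was present in 24 of 24 U6 genes, against 3 of 49 Pol II-type genes (6.122%) and 53.5% of all nuclear genes and pseudogenes. Both features together were found in 17 U6 genes, in 0 of 49 Pol II-type genes and in 8.26% of all nuclear genes and pseudogenes.

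The box differed between the higher and the lower U6 genes, a contrast chosen after the values were seen and given as a description. In the 8 genes with TATA at -31 the box read TATATAAA in 7 and TATATAAG in F54D8.7. Their optimal signal values lay between 1466 and 6175 (median 2939). The other 9 U6 genes with a peak had values of 161 to 832 (median 391). In replicate 1 the groups ran from 782 to 3637 and from 97.9 to 456. In replicate 2 they ran from 681 to 2544 and from 69.7 to 368. The groups did not overlap in either, but the split was chosen with these values known. The lack of overlap is therefore no separate support for it. Among the lower 9, the box read TATATAAT in 6 genes, TATATATT in F54C8.9 and TATAAACG in Y17G9A.90, and F54C8.8 had none. The position rests on the first TATA of each gene, since the longer word TATAAA begins at -29 both in the 7 TATATAAA genes and in Y17G9A.90, whose signal value of 639 is in the lower group. The promoters of a cluster are close copies, so these genes are not independent examples. The share of words found once in the genome also tended to be higher in the higher genes, with overlap. It was 73.0, 71.4, 68.5, 66.9, 66.2, 62.2, 49.8 and 40.8% in the 8 genes with TATA at -31. In the lower 9 it was 68.2, 63.3, 51.3, 50.9, 50.6, 46.1, 43.8, 42.3 and 40.1%. The part of repeated sequence in the split was not tested.

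The commonest 8-base word of the members between 80 and 41 bases before the start was CGGAACCC, found in 26 of 99. It was found in 0.126% of all nuclear genes and pseudogenes, which include the members. A word shifted by 1 base, GCGGAACC, was found in as many members. The word was picked from these same promoters, so its excess over all genes follows from the choice and is no separate support. The window covers the place of the proximal sequence element, but a match is only a description of the letters. CGGAACCC was present in 5 of 24 U6 genes (20.8%), each time at position -70, and in 15 of 49 Pol II-type genes (30.6%), of which 7 were U1, 6 U5, 2 U4 and 0 U2 genes. It was also present in 5 of 10 SmY genes. All 5 U6 genes with the word had an optimal peak (639 to 6175), and so did 11 of the 12 U6 genes with TATA but without the word (161 to 3248). Of the 15 Pol II-type genes with the word, 3 had an optimal peak, against 10 of the 34 without it. The word was thus found in both kinds of gene, with a peak and without.

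The Pol II-type genes with an optimal peak were near the lower end of the list. The lowest optimal peak had a signal value of 59.97. The U1 gene H27M09.6, at 61.2, was just inside that limit, and the U1 gene F08H9.10, with a pooled signal value of 58.6, was just outside it. Of the 12 U1 genes, whose RNA pairs with the 5′ splice site before U6 does, 3 had an optimal peak. The sup-6 gene had 108 in the optimal list, 70.8 in replicate 1 and 45.9 in replicate 2. The sup-39 gene had 66.7, 45.5 and 20.6, and H27M09.6 had 61.2, 38.5 and 21.8. Even sup-6 stood below the lowest U6 gene with an optimal peak in every list.

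Of the 20 U2 genes, whose RNA pairs with the branch point, 3 had an optimal peak. Y57G11C.35 had 72.7 in the optimal list, 33.2 in replicate 1 and 40.8 in replicate 2. F08G2.10 had 66.6, 53.2 and 16.3, and F11A5.14 had 64.7, 36.2 and 34.7. None of the 3 was among the 2123 strongest peaks of both replicates. Of the 5 U4 genes, whose RNA pairs with U6 until activation, C52E4.8 had 80.4, 56.2 and 22.3 and F10D2.13 had 68.9, 35.8 and 31.8. The peak of C52E4.8 covers that gene, with its summit 120 bp from the gene start. It also reaches within 500 bp of the start of snr-4, a gene for a core protein that binds U1, U2, U4 and U5 RNAs. No optimal peak lay within 100 bp of snr-4, so only the wider window links this peak to it. Which of the pair gave the peak was not tested.

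Of the 12 U5 genes, whose RNA holds the exon ends in place, 5 had an optimal peak. C53D6.12 had the highest, 1383, at a summit 559 bp from its start and beyond its 3′ end. That summit lies 12 bp inside the tRNA gene C53D6.t1 (chrIV:9000804-9000875), 421 bp from C53D6.12, and neither replicate list had a peak within 100 bp of the U5 gene. F38E11.10 had 123 in the optimal list, 76.3 in replicate 1 and 45.5 in replicate 2, with the summit at its first base. F42C5.12 had 76.7, 38.3 and 39.5. F38E11.11 had 75.3, 50.6 and 20.7, and Y69A2AR.36 had 66.7, 39.01 and 27.4. Of the 13 peaks of Pol II-type genes, 11 were exactly 600 bp wide, as were 12.2% of optimal and 91.6% of pooled peaks. None of the 17 U6 genes had a highest peak of that width, and theirs were 202 to 996 bp wide.

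In the full lists, which reach down to low signal values, the groups were alike in share and far apart in signal. The pooled list had a peak within 100 bp of 18 of 24 U6 genes (75%), against 42 of 49 Pol II-type genes (85.7%), 33.8% of all nuclear genes and pseudogenes and 24.1% of the other short genes. Replicate 1 had one at 18 U6 genes and 38 Pol II-type genes (77.6%), against 35.3% of all nuclear genes and pseudogenes. Replicate 2 had one at 17 U6 genes and 37 Pol II-type genes (75.5%), against 37.3%. The median pooled signal value was 744 in the 18 U6 genes and 44.0 in the 42 Pol II-type genes. By class, the Pol II-type medians were 53.2 for 11 U1 genes, 28.5 for 15 U2 genes, 45.4 for 5 U4 genes and 44.2 for 11 U5 genes, each above the list median of 11.6. The lowest pooled values were 12.3 and 14.7 in the U1 genes T27E4.12 and T27E4.11, and 11.24 and 13.09 in the U2 genes T14B4.10 and F08G2.9. In the U4 genes K03B8.10 and T11F9.16 they were 37.2 and 43.8, and in the U5 genes F07C6.5 and C53B4.9 they were 27.67 and 30.98. Weak peaks near Pol II-type snRNA genes were thus frequent beside the share over all genes. What gave them was not tested.

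**Figure D3:**
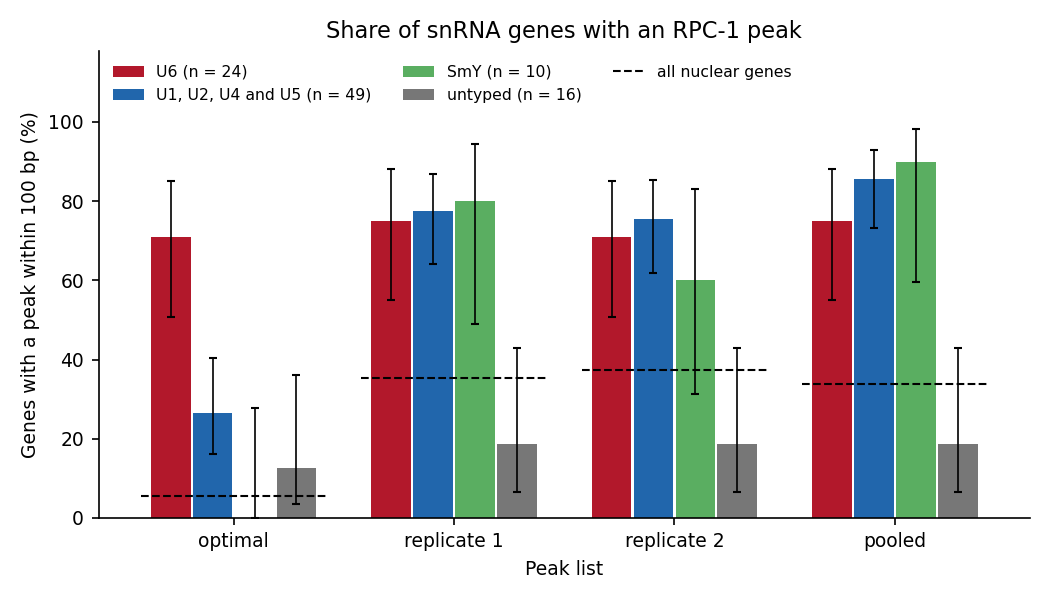
Share of U6, Pol II-type (U1, U2, U4 and U5), SmY and untyped genes with a peak within 100 bp in each list, with Wilson 95% intervals as error bars and the share over all nuclear genes as dashed lines. U6 stands apart in the optimal list (70.8% against 26.5%), and the full replicate and pooled lists give U6 and Pol II-type shares of 70.8 to 85.7%.

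SmY genes, whose RNAs bind Sm proteins and work in nematode trans-splicing, had no optimal peak (0 of 10, Wilson upper limit 27.8%, against 5.64% of all nuclear genes and pseudogenes and 8.56% of the other short genes). In the pooled list 9 of 10 (90%) had a peak, against 33.8% of all nuclear genes and pseudogenes and 24.1% of the other short genes, with signal values of 7.61 to 45.5 and a median of 22.5. The highest were smy-1 at 45.5 and smy-7 at 35.2, and the lowest were smy-12 at 7.61 and smy-6 at 8.29, while smy-4 had none. The value of 22.5 is 1 peak counted for both smy-10 and smy-9, with its summit 364 and -202 bp from their starts. For smy-5, smy-6 and smy-12 the summit lay at -383, 468 and 343 bp. Only 2 of the 9 genes had the summit of their highest pooled peak inside the gene. A peak in both replicate lists was found at 5 of 10 SmY genes. The sequence of the SmY genes is largely unique in the genome (92.3 to 100% of 36-base words occur once).

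Among the 16 untyped members, 13 had no peak in any list, and 3 had a pooled peak (18.8%, against 33.8% of all nuclear genes and pseudogenes). The pooled peaks of 2 of these 3 are also counted for an overlapping U1 gene, since mir-1831 lies within sup-39 and T27E4.22 overlaps T27E4.12. Both were typed as U1 by similarity. The pooled peak at T27E4.22 and T27E4.12 (12.3) had its summit upstream, at -156 and -141 bp from their starts. The third, M163.13 (chrX:14476867-14476946, plus strand), had 473 in the optimal list, 303 in replicate 1 and 176 in replicate 2, at rank 941. Its summit lay 16 bp into the gene, and 16 and 17 bp in the replicates. Its promoter holds TATATAAA at -30 and its end holds a TTTT run, and it is the only member outside the U6 class with TATAAA in that window. TATA in the window and a TTTT run occurred together in 3 of 16 untyped genes (18.75%). B0213.21 and B0213.24, with TATA at -19 and -33, had both and no peak in any list. The same 1431-bp interval carries summits at 2 annotated non-coding RNA genes, 58 bp into M163.15 with 407 and 31 bp into M163.12 with 189. The M163.13 gene is printed because it is the untyped member with a strong peak. It holds neither the U6 word nor an ACAGAGA box, so no letters are in capitals.
M163.13: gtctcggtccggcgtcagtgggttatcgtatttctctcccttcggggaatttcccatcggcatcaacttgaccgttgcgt

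The summits of U6 peaks lay close to the gene start. The median offset over the 17 genes was 10 bp into the gene in the optimal list (quartiles -17 and 18), and 14 and 9 bp in the strongest peaks of replicates 1 and 2. A total of 11 of 17 lay within 30 bp of the start, among them W05B2.8 at 16, F54D8.7 at 12, Y9C9A.111 at 7 and T08B6.62 at 5 bp. The others were C28A5.7, K09B11.11 and K09B11.12 at 76 to 81 bp, and F54C8.8, K09B11.13 and K09B11.14 upstream at -136 to -99 bp. Some summits differed between lists. That of F54C8.8 was at -19 bp in replicate 1 and -37 bp in replicate 2, and that of W05B2.8 at 86 and 19 bp. The K09B11.11 summit was at 111 and 83 bp and that of K09B11.12 at 10 and 83 bp. K09B11.14 had a further optimal summit 71 bp into the gene. Summits of the same U6 gene differed by a median of 8 bp between the replicates, and by up to 73 bp.

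Of the 13 Pol II-type genes, 3 had a summit within 30 bp of the start, and the offsets ran from -53 to 559 bp with a median of 95. In the 35 such genes with a peak in both replicate lists, the summits differed by a median of 72 bp between replicates. For comparison, 363 of 376 tRNA genes that lie over 1 kb from any other tRNA gene had an optimal peak, with a median offset of 13 bp (quartiles 11 and 16), and 85.95% of those summits lay within 30 bp of the start. Of other Pol III genes, the RNase P RNA gene rpr-1 had an offset of 17 bp, the Y RNA gene yrn-1 16 bp and the RNase MRP RNA gene mrpr-1 94 bp. Their signal values were 3487, 2971 and 3121, and the tRNA genes had a median of 3123, against a median of 832 over the 17 U6 genes. Of those 17, 3 U6 genes exceeded the tRNA median, W05B2.8, F54D8.7 and Y9C9A.111.

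**Figure D4:**
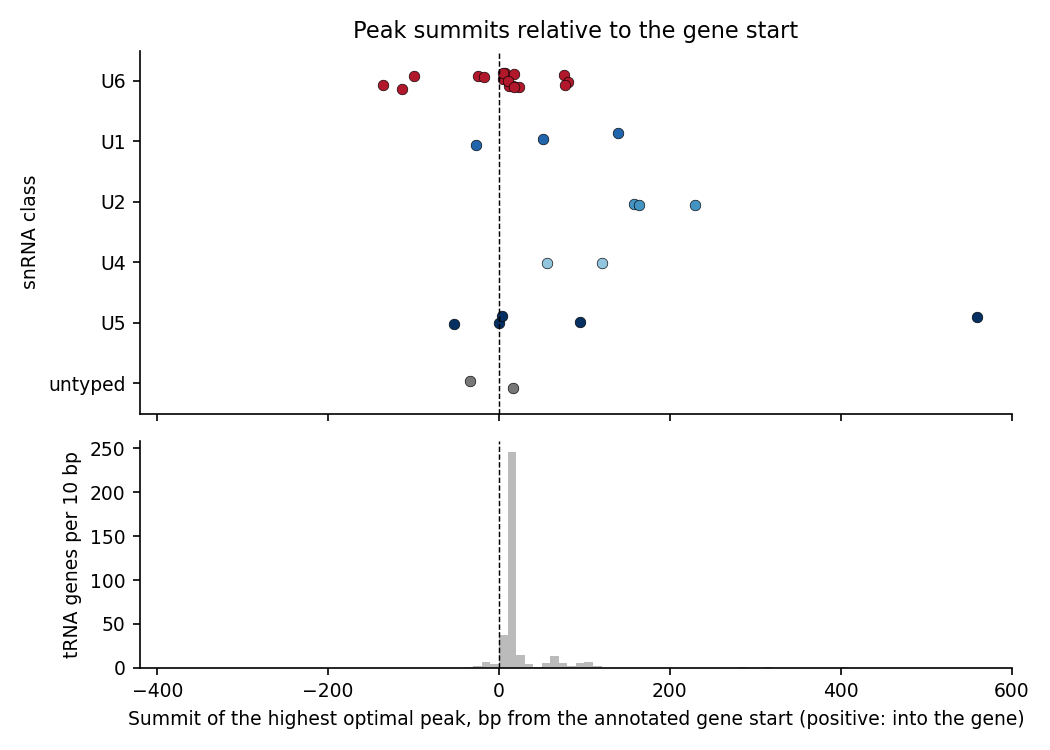
Position of the summit of the highest optimal peak relative to the annotated gene start, in bp, for each snRNA gene with an optimal peak (top, 1 point a gene) and for 363 isolated tRNA genes (bottom, genes per 10 bp, with 1 gene outside the axis). U6 summits gather near 10 bp, the tRNA summits at 13 bp, and those of U1, U2, U4 and U5 genes are spread from -53 to 559 bp.

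Repeated sequence bears on these values, since a read from identical copies cannot be placed in one of them. How the authors treated such reads is unknown here. The share of 36-base words that occur once in the genome was a median of 60.7% over the U6 genes with 100 bp on both sides (40.1 to 99.3%), and 63.1% over the Pol II-type genes (0 to 97.5%). Within the gene bodies, 17 of 24 U6 genes held no unique word, and 16 of these 17 had an optimal peak. The 7 U6 genes without an optimal peak had a median of 64.6%, against 51.3% in the 17 with one, and K09B11.15 stood at 52.1%. Among Pol II-type genes, 14 had under 50% unique words, and 1 of these 14 had an optimal peak, F08G2.10. The U2 genes F15H9.5 and F15H9.6 held none, and neither had a peak in any list, and the part of repeats in this was not tested. Other Pol II-type genes without a peak in any list were the U2 genes Y47H9A.2, W07G1.24 and W07G1.9, the U1 gene T27E4.10 and the U5 gene C53D6.16.

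Genes for proteins of the snRNA pathway were read at their promoters, within 500 bp of a transcript start. The list held SNAPc subunits, the TATA-binding protein and BRF-1 of TFIIIB, LSm proteins that bind the 3′ end of U6, Sm proteins of the other snRNAs, and U6 or U5 particle proteins, and 34 of its 37 names matched the annotation. An optimal peak was present at 1 of 34 (2.94%), against 2.75% of all protein-coding genes, and that was snr-4 with 80.4, the peak it shares with C52E4.8. A pooled peak was present at 31 of 34 (91.2%), against 39.5% of all protein-coding genes, with signal values of 7.51 to 80.4 and a median of 19.8. The SNAPc gene snpc-4 had 9.18 and tbp-1 had 13.2. No pooled peak was found at brf-1, snpc-1.3 or prp-3.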

How the data were processed

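Peak lists on ce11 from 2 ChIP-seq libraries were used, and the ce10 lists were not used. Each peak's signal value is a score that the authors deposited, with no stated unit. The deposited descriptions of the files say that a replicate list used the alignments of that replicate and a control, that the pooled list used both replicates, and that the 3 lists were then filtered by irreproducible discovery rate (IDR) into the optimal list. The sources used here do not name the aligner, the peak caller, the IDR threshold or the depth. The deposited optimal and pooled lists are joint values of both replicates with no error of their own.

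Genes, classes and lists were chosen with earlier results of these data known. The 99 members have the same intervals in Ensembl release 115. Peaks were matched to genes in Python 3.11.15 with NumPy 2.4.6, and the lookup was tested on simulated peaks. A summit offset is counted from the first base of the annotated gene, along its strand. Changes from the commonest U6 gene were counted with edlib 1.3.9. Shares have Wilson 95% intervals (SciPy 1.17.1), which cover counting error only. With 1 group of 2 libraries no test between samples was possible, and none over genes was made. Uniqueness is the share of 36-base words of a gene with 100 bp on both sides that occur once in the genome on either strand. Named genes were every U6 gene, other members with an optimal peak, members with no peak in any list where a class had at most 5 such members, and the highest and lowest of each class. Alternatives were other windows, stricter and fuller lists, single replicates, and the removal of members near Pol III genes or in repeated sequence. The sequences of the U6 genes themselves are not reported here.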

Additional observations from a re-analysis of the deposited data

How the results depend on the processing

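No paired analysis was possible because there is 1 group. The share of U6 genes with a peak stayed between 61.1 and 75% under all 11 alternatives, inside the interval of the main value. The share of U1, U2, U4 and U5 genes was 2.04% in the stronger 50% of the optimal list, 85.7% in the full pooled list, and 12.2 to 16.3% when 1 replicate was left out, that is, in the 2123 strongest peaks of the other. The difference in share turned to -10.7 percentage points in the full pooled list and lay between 26.8 and 60.5 in the other 10 alternatives, lowest without members under 50% unique words. The U6 median signal, relative to the list median, was 2.10 with a window of 250 bp, 3.24 with the summit within 100 bp or with 50% of the gene covered, 0.743 in the stronger 50% of peaks, 64.2 in the pooled list, 4.13 without members under 50% unique words, and 2.03 to 2.35 when 1 replicate was left out. That of U1, U2, U4 and U5 genes was 0.701 in the stronger 50% of peaks (1 gene, C53D6.12), 3.80 in the pooled list, and 0.231 to 0.256 when 1 replicate was left out. Fuller and stricter lists have other medians by construction. The U6 median summit offset was 14 bp with the summit within 100 bp or with 50% of the gene covered, and 9 to 14 bp when 1 replicate was left out. TATAAA in place of TATA was found in 8 U6 genes (33.3%) and 0 of 49 Pol II-type genes, and TATA anywhere in 100 bases in 83.3% and 30.6%. TTTTT in place of TTTT was found in 87.5% and 0%.

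With 2 replicates and peak lists only, the lack of a peak is not shown to be a lack of RPC-1, and the depth that sets the reach of a list is unknown. Summits within one broad interval, and copies closer than a peak is wide, limit which gene a peak is given to.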
